A study of Mus musculus with 20 samples.

Results

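Dominant-negative Bmal1 was induced together with Clock in mouse embryonic stem cells (ESC), and 4 of the 20 RNA-seq libraries of the series measured it. They were chosen by their labels as tetO-Clock/Bmal1DN clones 5 and 6, each without and with doxycycline (dox), the drug that switches on genes under a tetO promoter. All ESC libraries came from the KY1.1 line. Dox was given at 500 ng/mL for 6 hours, and the untreated library of the same clone was the control. A KY1.1 control line with no transgene named in its label gave 1 untreated and 1 treated library, which show dox alone. The same dox treatment of tetO-Clock/Bmal1 clones 1 and 7, in which Clock is induced with active Bmal1, served for comparison. Each inducible line is 1 clone, so the replicates are 2 independent clones per construct. The labels do not describe the change that makes Bmal1 dominant negative, nor do they say whether KY1.1 cells were grown on feeder cells.

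CLOCK and BMAL1 (gene symbol Arntl) are bHLH-PAS transcription factors that bind E-box sequences as a pair and activate their targets. Among these are their own repressors, the period and cryptochrome genes, and the nuclear receptor gene Nr1d1, whose product represses Arntl. The PAR bZIP factors Dbp, Tef and Hlf carry the rhythm to further genes. In general, a dominant-negative factor is a form that takes the place of the active one without its function. Mouse ESC are known for lacking a running circadian oscillator, which appears as the cells differentiate.

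These 3 promoters are shown because the dox effect on their genes differed between the 2 constructs, and they were picked after the values were seen. All 3 genes rose with the active pair. In both dominant-negative clones the treated library was below the untreated one for Dbp and Nr1d1 and slightly above it for Ciart. The sequences are the 250 bases before the RefSeq start (GRCm38.p6), on the gene's strand. Capitals mark the E-box CACGTG or the related E′-box CACGTT, searched on both strands, so that AACGTG is the latter read on the other strand. The windows do not contain the bases after the start. They are chr11:98775378-98775627 on the minus strand for Nr1d1, chr3:95882229-95882478 on the minus strand for Ciart and chr7:45704997-45705246 on the plus strand for Dbp. The RefSeq starts lie 44, 3 and 159 bp from the start of the counted transcript.
Nr1d1: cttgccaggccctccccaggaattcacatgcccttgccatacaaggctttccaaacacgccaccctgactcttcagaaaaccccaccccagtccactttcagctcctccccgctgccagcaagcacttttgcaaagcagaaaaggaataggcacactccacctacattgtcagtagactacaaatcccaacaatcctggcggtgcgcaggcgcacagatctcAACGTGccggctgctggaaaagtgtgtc
Ciart: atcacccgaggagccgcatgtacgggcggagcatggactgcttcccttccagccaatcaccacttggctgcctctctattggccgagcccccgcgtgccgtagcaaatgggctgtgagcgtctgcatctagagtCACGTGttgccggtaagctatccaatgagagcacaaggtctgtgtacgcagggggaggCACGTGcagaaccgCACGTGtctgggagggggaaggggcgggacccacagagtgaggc
Dbp: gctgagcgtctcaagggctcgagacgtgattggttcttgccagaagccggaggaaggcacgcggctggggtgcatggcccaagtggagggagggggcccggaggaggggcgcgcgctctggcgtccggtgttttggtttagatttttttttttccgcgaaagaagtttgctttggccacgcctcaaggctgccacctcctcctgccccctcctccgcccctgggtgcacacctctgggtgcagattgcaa
The Ciart window held 3 copies of CACGTG, with their first bases 116, 58 and 44 bases before the start. In the Nr1d1 window 1 match to CACGTT lay 28 bases before the start, and neither motif was in the Dbp window. Of the 20 clock genes followed here, 17 had a RefSeq window within 500 bp of the counted start. CACGTG was in 5 of them, CACGTT in 3 and either motif in 7, against 6.02%, 3.85% and 9.57% of 32851 windows of that length. A match is a description of these letters and not of binding.

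The ESC libraries held 40.3 M to 57.3 M gene-body counts (M for mega), and the 4 with dominant-negative Bmal1 held 40.3 M to 47.5 M. The 7 ESC markers were all detected in each library, with sums between 1458 and 2190 CPM (counts scaled to the library total). Clone 6 stood apart. The 10 fibroblast markers summed to 472.7 CPM in its untreated library and 64.95 CPM in its treated library, against 93.82 and 97.13 CPM in clone 5 and sums of 53.73 to 243.5 CPM in the libraries of the other lines. Lum, a proteoglycan of connective tissue, was at 0 in the untreated control library only. In bulk RNA, a differing share of fibroblasts and a differing level of these RNAs per cell cannot be told apart. The 5 primitive endoderm markers summed to 18.96 CPM in untreated clone 6 against 3.013 to 9.455 CPM elsewhere, and 16.5 CPM of that sum was Pdgfra, a growth factor receptor that fibroblasts also express. The part of these other cell types in the results below was not tested.

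**Figure D1:**
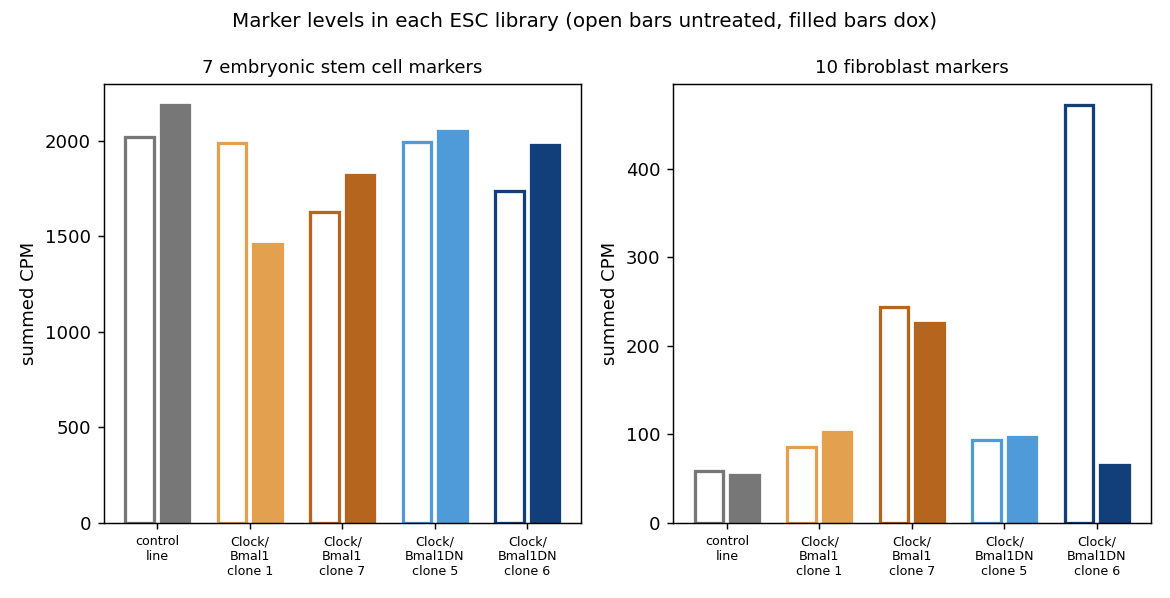
Summed CPM of 7 ESC markers (left) and 10 fibroblast markers (right) in each of the 10 ESC libraries, with untreated libraries as open bars and treated ones as filled bars. The ESC markers lie between 1458 and 2190 CPM throughout, whereas the fibroblast markers reach 472.7 CPM in untreated clone 6 and 64.95 CPM after dox.

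The first question is whether dox induced the transgenes. Clock and Arntl were both higher with dox in both clones, and Arntl was the only gene that passed the test. That call was lost with a filter of at least 1 CPM in 2 libraries (adjusted p = 0.0559, 0 genes called in edgeR) and, in fits without the clone block, without untreated clone 5 (0.215) or untreated clone 6 (0.298). Counts over these genes include the reads of the transgenes, whose share was not separated, so the values are no measure of the endogenous genes. Arntl was at 54.6 CPM untreated and 1615 CPM with dox in clone 5, and at 44.4 and 4068 CPM in clone 6. The treated libraries lay far above the untreated ones, and the treated clone 6 was well above the treated clone 5. The means were 49.5 ± 7.21 and 2841 ± 1734 CPM (SD, n = 2 clones). The log2 fold change was 5.70 ± 0.433 (SE, edgeR adjusted p = 0.0105), a 52.1-fold rise. In the control line Arntl was at 38.9 CPM untreated and 37.7 CPM with dox.

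Clock was at 35.7 and 325 CPM in clone 5 and at 39.7 and 1499 CPM in clone 6. The control line had 29.3 CPM without and 28.0 CPM with dox. The within-clone count ratio of dox to untreated was 9.09 (95% exact interval 8.62 to 9.59) in clone 5 and 37.8 (36.1 to 39.6) in clone 6, intervals that cover counting error only. These intervals do not overlap, so the clones differed in the size of the response beyond counting error. The fold change of 4.21 ± 0.481 on the log2 scale missed the threshold over all features (adjusted p = 0.145). It passed with DESeq2 (adjusted p = 2.49e-05), with limma voom (0.0438) and in edgeR with no filter on low counts (3.38e-68). In the fit with no filter the spread came from the trend over all features, so differences between the clones in Clock itself were left out. The log2 fold change was 3.19 in clone 5 alone and 5.26 in clone 6 alone. In edgeR it missed the threshold with other scalings (0.112 and 0.267), in the 4 libraries alone (0.212), without the clone block (0.384) and with the filter of 1 CPM (0.519).

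With the active pair, treated Clock was at 700 and 575 CPM and treated Arntl at 2203 and 4135 CPM in Clock/Bmal1 clones 1 and 7. The difference between the 2 constructs in the log2 fold change was 0.50 for Clock (95% interval -0.86 to 1.87, adjusted p = 0.95) and -0.31 for Arntl (-1.46 to 0.84, adjusted p = 0.962). These intervals are wide and do not show equal induction.

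**Figure D2:**
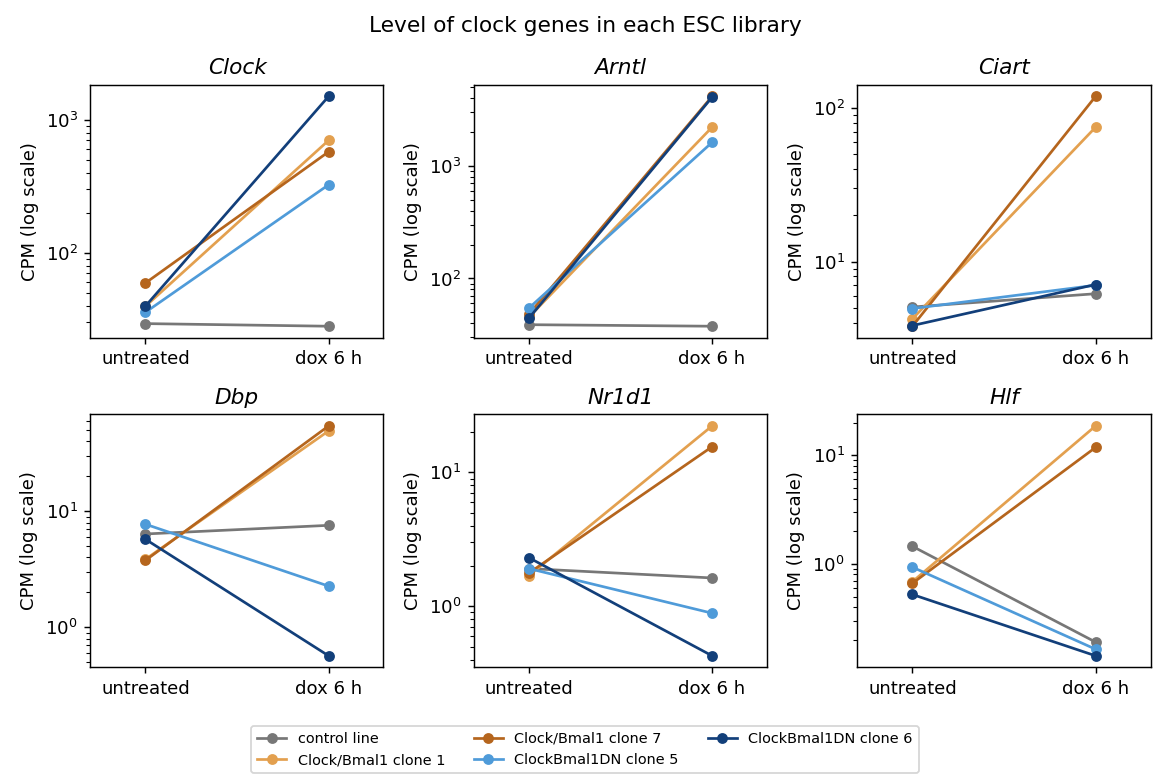
CPM of 6 clock genes on a log axis without and with dox, with 1 line per clone joining its 2 libraries. Clock and Arntl climb in all 4 inducible clones, while Dbp and Nr1d1 go up with the active pair (orange) and down with the dominant-negative pair (blue).

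Beyond the transgenes, the next question is how many genes responded. With clone as a block, 1 of 22500 features rose (0.00444%) and 0 fell (0%) at an adjusted p under 0.05 in edgeR. At an unadjusted p under 0.05, 293 were higher (1.3%) and 835 lower (3.71%), together 5.01% of the features. DESeq2 made 6 calls: Arntl, Clock and Cdh3 rose and Dbp, Ntpcr and Rpp38 fell. limma voom made 2 calls, Arntl and Clock. With clone 5 alone, Arntl and Clock rose and Dbp fell. With clone 6 alone, far more features were called in both directions than with clone 5 alone. The 24 tested members of a longer fibroblast list had a median log2 difference of -2.64 in clone 6, against -0.011 over all features. In the fits of 1 clone the spread comes from the Clock/Bmal1 clones, and the lone pair is assumed to vary like them.

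The differences between treated and untreated libraries were broader in clone 6 than in clone 5 and also differed in content. Untreated clone 6 is the library with the high fibroblast sum, and its part in this breadth was not tested. Among 14797 features with a mean of at least 1 CPM, the within-clone log2 differences had an SD of 0.263 in clone 5 and 0.736 in clone 6, with 0.439 in the control pair. At least 2-fold higher with dox were 30 features (0.203%) in clone 5, 621 (4.2%) in clone 6 and 266 (1.8%) in the control pair. At least 2-fold lower were 56 (0.378%), 1161 (7.85%) and 229 (1.55%). Across these features the clones' differences had a Pearson r of -0.07 and a Spearman rho of -0.17, and 41.5% had the same sign. These are values across genes, which are not independent replicates.

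**Figure D3:**
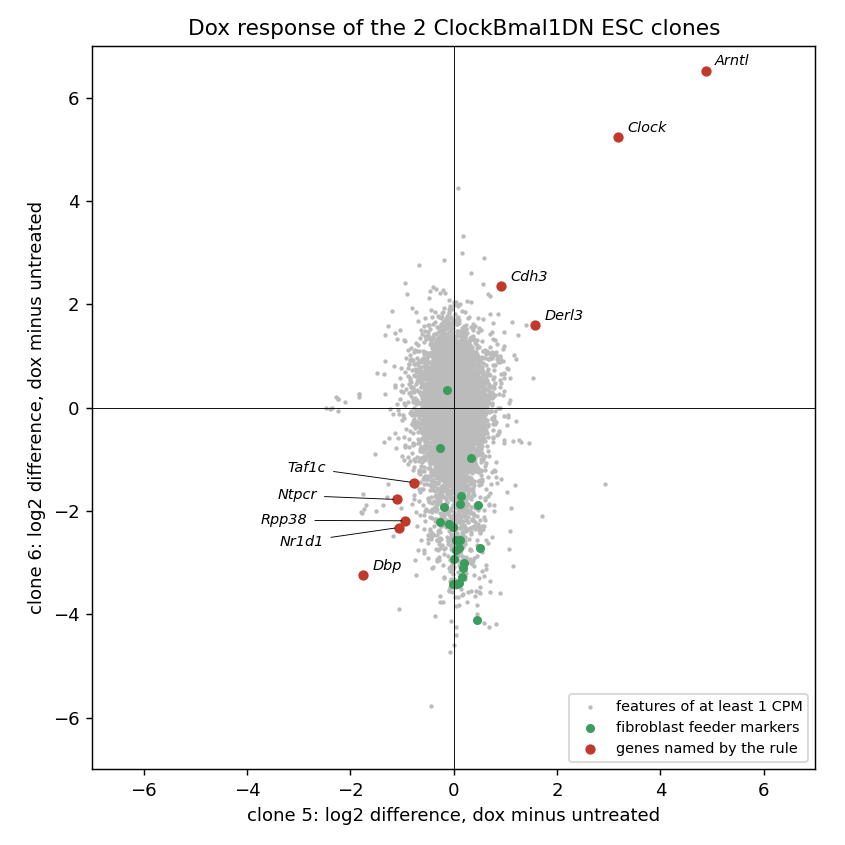
Log2 difference in CPM, dox minus untreated, in clone 5 (x axis) and clone 6 (y axis) for 14797 features, with 23 fibroblast markers in green and genes named by the selection rule in red. The cloud is narrow in clone 5 and wide in clone 6, most fibroblast markers lie low in clone 6 and near 0 in clone 5, and Arntl, Clock, Derl3, Cdh3 and Dbp stand out with the same sign in both clones.

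At least 2-fold in both clones were 7 features higher (0.0473%) and 15 lower (0.101%), and 0 of the 22 were so in the control pair in the same direction. In the control pair only 1.8% of all these features were 2-fold higher and 1.55% lower, so 0 of 22 is near that share. The 5 higher ones with a full gene name were Arntl, Clock, Derl3, Nebl and Ccdc177, and the 6 lower ones were Dbp, Nr1d1, Ntpcr, Gxylt2, Tnfsf15 and Adgre1. Of the 7 higher features 3 were also at least 2-fold higher in both Clock/Bmal1 clones: Derl3, and Arntl and Clock, which are transgenes of both constructs. Of the 15 lower ones 2 were also at least 2-fold lower there, Ntpcr and the provisional 1700113A16Rik. The share of all features that passed this fold in both Clock/Bmal1 clones is not given here, so the overlap has no background. Nebl, Ccdc177, Gxylt2, Tnfsf15 and Adgre1 are outside the naming rule and were picked after their values were seen.

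Of the output factors of the clock, Dbp was lower with dox in both clones and not in the control line. Dbp, a PAR bZIP factor and a classical direct target of CLOCK and BMAL1, was at 7.74 CPM untreated and 2.27 CPM with dox in clone 5, and at 5.75 and 0.569 CPM in clone 6. Both treated libraries lay below both untreated ones, as for 14.5% of all features. The untreated level was 3.42-fold that with dox in clone 5 (95% exact interval 2.72 to 4.33) and 10.1-fold in clone 6 (6.64 to 16.04). In the control pair Dbp went the other way, at 6.38 CPM untreated and 7.57 CPM with dox, a ratio of 1.19 (1.01 to 1.39). Its log2 fold change of -2.45 ± 0.358 had the smallest p of all features that were lower (8.64e-05), but its adjusted p was 0.648. Dbp fell with DESeq2 (adjusted p = 6.22e-08) and was not called with limma voom. In edgeR it missed the threshold without the clone block (0.983), with other scalings (0.562 and 0.617), with the filter of 1 CPM (0.914) and in the 4 libraries alone. The log2 fold change was -1.77 in clone 5 alone and -3.31 in clone 6 alone.

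Nr1d1 encodes REV-ERB alpha, the nuclear receptor that represses Arntl. It was at 1.91 and 0.888 CPM in clone 5 and at 2.31 and 0.427 CPM in clone 6. The treated libraries were again below the untreated ones in both clones, by 2.15-fold (1.45 to 3.25) and 5.41-fold (3.26 to 9.47). The control pair had 1.91 and 1.63 CPM, a ratio whose interval includes no change (untreated to dox 1.18, 0.855 to 1.62). This gave a log2 fold change of -1.72 ± 0.381 and an adjusted p of 0.902, on 188 counts in the untreated and 56 in the treated libraries. In clone 6 alone the log2 fold change was -2.40, and in clone 5 alone it was -1.10.

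Hlf, another PAR bZIP factor, was at 0.933 and 0.164 CPM in clone 5 and at 0.522 and 0.142 CPM in clone 6. In this case the control line did the same, from 1.45 CPM untreated to 0.19 CPM with dox. The untreated to dox ratio was 5.70 (2.53 to 15.1) in clone 5, 3.67 (1.46 to 10.98) in clone 6 and 7.63 (3.78 to 17.4) in the control line, which overlap. A log2 fold change of -2.20 ± 0.418 (adjusted p = 0.902) is thus not separable from the value for dox alone, on only 64 and 13 counts. Tef, the remaining PAR bZIP factor, had 37.5 and 54.2 CPM in clone 5 and 41.1 and 45.1 CPM in clone 6 (log2 fold change 0.33 ± 0.201). Nfil3, a bZIP repressor that competes with these factors, stayed within 4.20 to 5.93 CPM in the 4 libraries (0.08 ± 0.279).

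Of the other nuclear receptors, Nr1d2, which encodes REV-ERB beta, had a log2 fold change of 0.01 ± 0.209 on levels of 45.1 to 53.4 CPM. Rora, which encodes an activator at the sites that REV-ERB proteins repress, was at 9.42 and 8.37 CPM in clone 5 and at 12.3 and 5.10 CPM in clone 6 (-0.72 ± 0.318, adjusted p = 0.902). The control pair had 10.6 and 6.85 CPM. Rorb, its relative, was below 0.4 CPM in all 4 libraries.

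The repressors of the clock did not move together. Per3 was at 4.90 CPM untreated and 2.81 CPM with dox in clone 5, and at 6.84 and 4.22 CPM in clone 6. Its untreated to dox ratio was 1.75 (1.39 to 2.20) and 1.62 (1.34 to 1.96), whereas the control pair had 5.19 and 4.97 CPM. It gave -0.75 ± 0.247 on the log2 scale (edgeR adjusted p = 0.902). Per1 had 4.11 CPM in both libraries of clone 5 and 3.66 and 5.03 CPM in clone 6, a change of 0.23 ± 0.258. Per2 went in opposite directions, from 1.31 to 0.795 CPM in clone 5 and from 1.07 to 2.51 CPM in clone 6. The cryptochromes Cry1 and Cry2, partners of the period proteins, likewise differed in sign between the clones, with log2 fold changes of 0.12 ± 0.209 and 0.15 ± 0.269.

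Ciart, also called CHRONO, represses the CLOCK and BMAL1 pair. It was at 4.95 and 7.01 CPM in clone 5 and at 3.83 and 7.09 CPM in clone 6, higher with dox in both. The dox to untreated ratio was 1.42 (1.19 to 1.70) and 1.85 (1.53 to 2.24), and the control pair had a ratio of 1.22 (1.02 to 1.46). The interval of clone 5 overlaps that of the control line and the interval of clone 6 does not. The log2 fold change was 0.69 ± 0.255 (adjusted p = 0.902). The DEC repressors Bhlhe40 and Bhlhe41 had values of -0.19 ± 0.281 and 0.08 ± 0.519, the latter on 27 counts in each group. The paralogs of the transgenes, Npas2 and Arntl2, had values of 0.31 ± 0.359 and 0.11 ± 0.232.

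In all, 1 of the 20 clock genes rose (Arntl) and 0 fell. Without Clock and Arntl, 0 of 18 passed with edgeR, and 1 (Ciart) was higher and 4 (Dbp, Hlf, Nr1d1 and Per3) were lower at an unadjusted p under 0.05, against 1.3% and 3.71% of all features. The median log2 fold change of these 18 was 0.10, with -0.02 over all features, and 12 of the 18 rose in the Clock/Bmal1 clones, where 150 features rose (0.667%) and 8 fell (0.0356%).

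**Figure D4:**
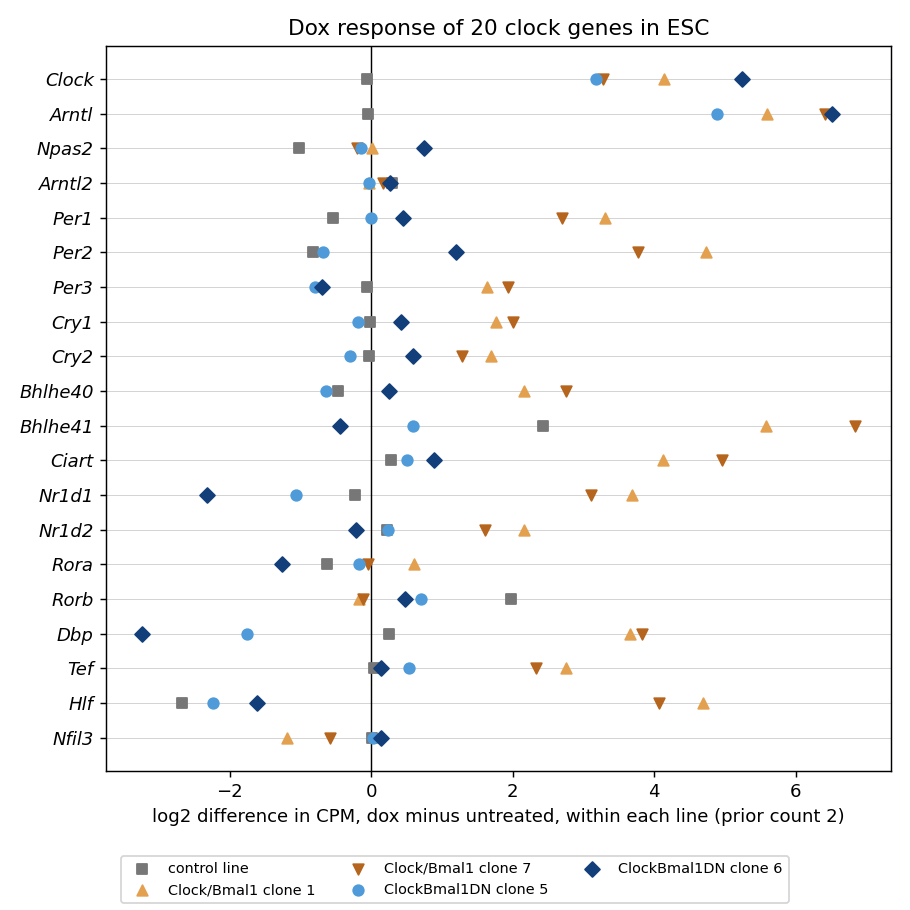
Log2 difference in CPM, dox minus untreated, for 20 clock genes in each of the 5 ESC pairs. For Clock and Arntl all 4 inducible clones lie far to the right of the control line (squares), spread from 3.18 to 5.24 for Clock. For most other genes the Clock/Bmal1 clones (triangles) lie to the right and the dominant-negative clones lie near the control line, with Dbp and Nr1d1 to its left.

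The third comparison asks where the dox effect of the dominant-negative construct differed from that of the active pair at the same dose and time. The difference of the 2 dox effects was called for 25 features (0.111%), all with a lower effect in the dominant-negative clones, and for 0 with a higher effect. At an unadjusted p under 0.05, 1077 had a lower (4.79%) and 418 a higher effect (1.86%). Without the clone block 13 were called. With 1 clone left out the counts moved: with clone 5 alone 313 had a lower and 39 a higher effect, and with clone 6 alone 1392 and 256. Of the 20 clock genes 8 were among the 25: Hlf, Dbp, Nr1d1, Bhlhe41, Ciart, Per1, Per3 and Tef. These genes had been seen to respond to the active pair in earlier results of the same libraries.

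The gap was wide for Dbp. After dox it stood at 49.3 and 54.4 CPM with the active pair, against 2.27 and 0.569 CPM with the dominant-negative one. The difference in log2 fold change was -6.21 ± 0.495 (95% interval -7.34 to -5.09, adjusted p = 0.00525). Nr1d1 reached 22.2 and 15.6 CPM with the active pair, a difference of -5.14 ± 0.519 (-6.32 to -3.97, adjusted p = 0.0136). Ciart reached 74.9 and 119 CPM, a difference of -3.86 ± 0.366 (-4.70 to -3.03, adjusted p = 0.0122). For Ciart the dominant-negative clones were near the control level, whereas for Dbp and Nr1d1 they lay under it.

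Hlf had a difference of -6.66 (adjusted p = 0.00525), with -6.35 for Bhlhe41 (0.0219), -2.21 for Tef (0.0419), -2.78 for Per1 (0.0419) and -2.54 for Per3 (0.0473). For Per1 and Per3 the call was lost without the clone block, with adjusted p of 0.3 and 0.167. Per2 (-4.02, 95% interval -5.53 to -2.51, adjusted p = 0.0956), Bhlhe40 (-2.66, -3.56 to -1.76, 0.0674), Nr1d2 (-1.88, -2.56 to -1.20, 0.0859) and Cry1 (-1.77, -2.45 to -1.10, 0.0956) missed the threshold with intervals that leave out 0.

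Outside the clock, Rasd2, Ndrg1, Lfng and Foxred2 were looked at among the 25 after their values were seen. Lfng, a glycosyltransferase that modifies Notch receptors, was at 13.8 and 13.0 CPM in clone 5 and at 10.3 and 17.1 CPM in clone 6, against 84.3 and 95.3 CPM with the active pair. Rasd2, which encodes a small GTPase, was at 1.82 and 3.20 CPM in clone 5 and at 2.18 and 4.55 CPM in clone 6, higher with dox in both, against 88.5 and 98.0 CPM with the active pair. Ndrg1, a stress-responsive gene, was at 12.8 and 9.91 CPM in clone 5 and at 10.5 and 3.41 CPM in clone 6. Foxred2 was at 25.8 and 16.4 CPM in clone 5 and at 24.1 and 13.4 CPM in clone 6, both lower with dox, and went up to 74.9 and 59.0 CPM with the active pair. Like Dbp, Ndrg1 and Foxred2 were thus on opposite sides of the untreated level with the 2 constructs. Neither passed the test for the dominant-negative clones alone (adjusted p = 0.902 for both).

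Some genes had the same direction with both constructs. Derl3, which encodes a derlin of the pathway that clears misfolded proteins from the endoplasmic reticulum, was at 1.59 and 4.82 CPM in clone 5 and at 1.52 and 4.70 CPM in clone 6. Its log2 differences of 1.58 and 1.60 were nearly equal in the clones. With the active pair it was at 1.88 and 3.84 CPM in clone 1 and at 1.43 and 3.89 CPM in clone 7, while the control pair had 2.18 and 1.65 CPM. Cdh3, which encodes P-cadherin, was at 24.7 and 46.6 CPM in clone 5 and at 19.7 and 101 CPM in clone 6, and the active pair gave 21.6 and 47.3 CPM in clone 1 and 25.4 and 60.9 CPM in clone 7. Neither passed with edgeR (adjusted p = 0.902 for both), and Cdh3 rose with DESeq2 (adjusted p = 0.00102). The differences between constructs were 0.38 (95% interval -0.55 to 1.301) for Derl3 and 0.44 (-0.55 to 1.43) for Cdh3.

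Of the genes named by their p-values, 3 had lower values with dox in both clones without passing the edgeR test with either construct. Ntpcr, a nucleoside-triphosphatase gene, was at 16.7 and 7.76 CPM in clone 5 and at 15.6 and 4.51 CPM in clone 6. Rpp38, which encodes a subunit of RNase P, was at 30.2 and 15.8 CPM in clone 5 and at 26.1 and 5.69 CPM in clone 6. Taf1c, which encodes a subunit of the RNA polymerase I selectivity factor, was at 39.1 and 23.0 CPM in clone 5 and at 35.0 and 12.8 CPM in clone 6. In all 3 the treated libraries were below the untreated ones, and in the control pair the log2 differences were 0.24, 0.20 and -0.002. The log2 fold changes were -1.44 ± 0.252, -1.56 ± 0.315 and -1.11 ± 0.223 with edgeR adjusted p of 0.902, and Ntpcr and Rpp38 fell with DESeq2 (adjusted p = 0.0046 for both), whereas Taf1c missed the threshold (0.0601). With the active pair they were -1.18, -1.57 and -0.52 (adjusted p = 0.0882, 0.07 and 0.498), and the differences between constructs were -0.26 (95% interval -1.05 to 0.53), 0.02 (-0.98 to 1.01) and -0.59 (-1.29 to 0.12).

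The remaining 2 genes named by their p-values did not exceed 2.00 CPM in the 4 libraries. Gpx6, a glutathione peroxidase gene, had 30 counts in the untreated and 112 in the treated dominant-negative libraries, and the control pair went from 0 to 0.592 CPM. Cxcl5, a chemokine gene, had 118 and 17 counts, with 2.00 CPM in untreated clone 6, the library with the high fibroblast sum, and 0.607 CPM in untreated clone 5. Adgre1, a macrophage marker, and Tnfsf15, a cytokine gene, were likewise highest in untreated clone 6, at 2.98 and 4.83 CPM. In clone 5 they were at 0.747 and 1.12 CPM untreated and at 0.234 and 0.514 CPM with dox.

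Gene lists for the state of the cells showed no called member. Only 1 of all 22500 features was called (0.00444%), so the lack of calls says little about these lists. The 24 naive pluripotency genes had a median log2 difference of -0.07 in clone 5 and -0.08 in clone 6, with 0 passing. Pou5f1, which encodes OCT4, was at 802 and 844 CPM in clone 5 and at 728 and 785 CPM in clone 6. Dppa5a, the other most abundant member, was at 362 and 394 CPM in clone 5 and at 354 and 665 CPM in clone 6. The 17 genes of primed pluripotency and early differentiation had medians of -0.20 and 0.27. Dnmt3b, a DNA methyltransferase, and Tdgf1, a NODAL co-receptor, had log2 fold changes of 0.10 ± 0.178 and 0.15 ± 0.209. Both were near 0 in clone 5 (-0.067 and -0.007) and higher in clone 6 (0.27 and 0.31).

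The 32 cell cycle genes had a median log2 difference of 0.032 in clone 5 and 0.079 in clone 6. Top2a, a DNA topoisomerase, had 0.08 and 0.26, and the mitotic cyclin Ccnb1 had 0.16 and -0.25, which differ in sign. For the 13 genes of the MYC network the medians were -0.061 and 0.096. Mycn, a MYC family member, was at 144 and 131 CPM in clone 5 and at 117 and 136 CPM in clone 6, which differed in sign. Mycn fell with the active pair (log2 fold change -1.09, edgeR adjusted p = 0.0383). The difference between constructs was 1.13 (95% interval 0.55 to 1.70) and did not pass (adjusted p = 0.29). Mga, a MYC antagonist, had differences of -0.20 and 0.096. The 27 genes of Notch signalling and the segmentation clock had a median of -0.14 in clone 5 and 0.45 in clone 6. Their most abundant members, the Notch effector Rbpj and the receptor Notch2, had log2 fold changes of -0.18 ± 0.175 and 0.09 ± 0.225. Rbpj was at -0.28 and -0.068 in clones 5 and 6, and Notch2 at -0.26 and 0.45. Among 16 other direct clock outputs the medians were -0.23 and -0.17, and 3 were lower at an unadjusted p under 0.05, against 3.71% of all features. Klf9, a zinc finger factor and 1 of these 3, had -0.25 in clone 5 and -0.82 in clone 6 (-0.53 ± 0.204 over both). Nampt, an enzyme of NAD synthesis, had -0.18 and -0.17.

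Fibroblast genes were lower with dox in clone 6 and level in clone 5. The 24 fibroblast genes had a median of 0.10 in clone 5, -2.64 in clone 6 and -0.04 in the control pair, with 12 of the 24 lower at an unadjusted p under 0.05, against 3.71% of all features, and 0 called in edgeR. Col5a2, a fibrillar collagen gene, was at 189 and 213 CPM in clone 5 and at 826 and 84.7 CPM in clone 6. Fn1, which encodes fibronectin and is also made by stem cells, was at 283 and 237 CPM and at 526 and 307 CPM. Ccn1 and Ccn2, matricellular immediate early genes, had log2 differences of 0.07 and -0.07 in clone 5 and of -1.49 and -2.27 in clone 6. The 27 immediate early genes had a median of -0.04 in clone 5 and -0.46 in clone 6. For the 23 genes of hypoxia and glycolysis the medians were -0.07 and -0.29, and the glycolytic enzyme genes Pkm and Eno1 had values of 0.071 and 0.005 in clone 5 and of -0.65 and -0.15 in clone 6.

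In 13 of the remaining lists no member passed either, which is near the share of 0.00444% over all 22500 features. Their medians lay between -0.28 (9 neural markers) and 0.22 (11 primitive endoderm markers). These lists were clock kinases and ubiquitin enzymes, primitive endoderm, trophoblast and neural markers, Wnt signalling, FGF and MAPK feedback, p53 targets, the integrated stress response, the unfolded protein response, cholesterol synthesis, mitochondrially encoded genes, the interferon response and 15 genes picked because they changed with Clock/Bmal1 in these ESC. The last list was chosen on these libraries and is no independent evidence of its direction, and its median was 0.14. Of 14 two-cell-like genes, 1 had enough counts to be tested and did not pass.

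**Figure D5:**
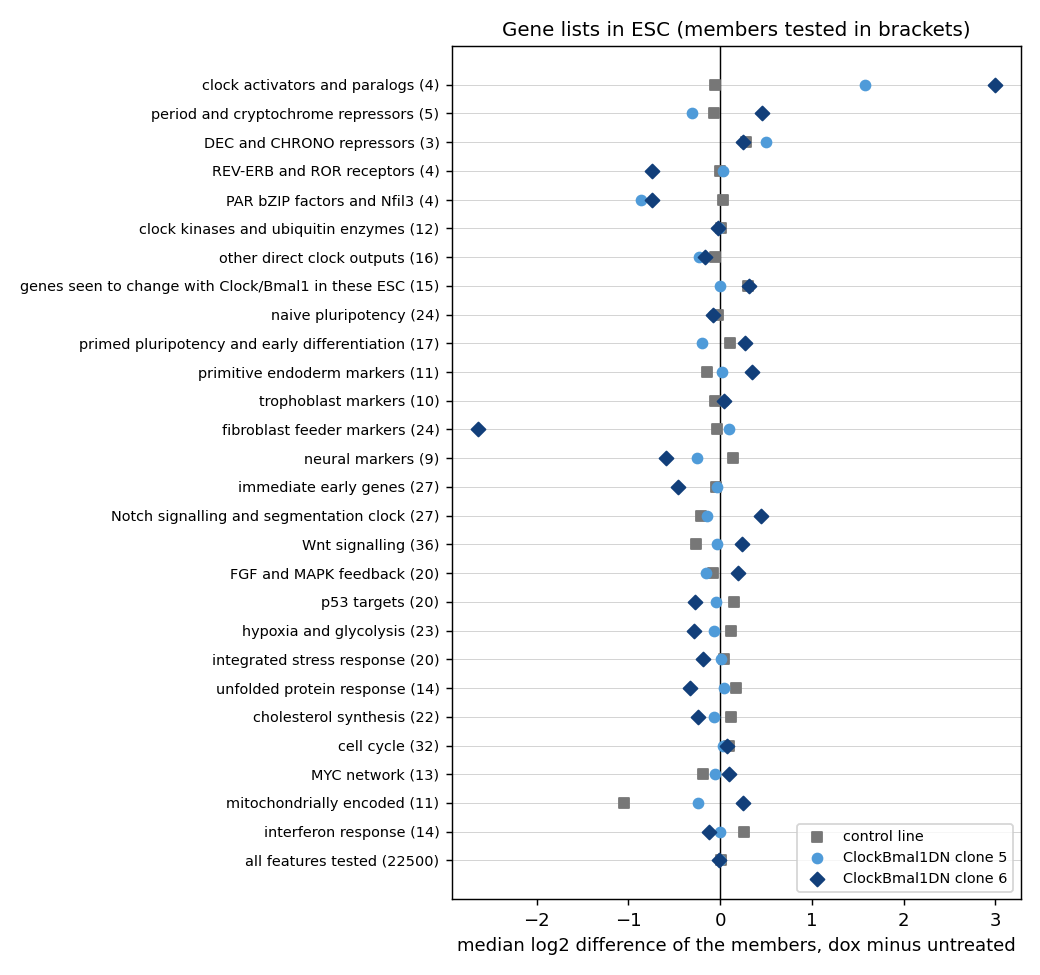
Median log2 difference in CPM, dox minus untreated, of 27 gene lists and of all features tested, with the number of members tested in brackets, for the control pair and both dominant-negative clones. The fibroblast list lies at -2.64 in clone 6 and at 0.10 in clone 5, and the activators, which contain both transgenes, lie to the right.

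Dominant-negative clones were also measured as induced presomitic mesoderm (iPSM), made from another ESC line. The labels of all iPSM libraries name pHes7-luc, a reporter, and those of the ESC libraries do not. Dose and time differ there (1000 ng/mL for 2 hours, clones 7 and 19), so values are set side by side without a test. Clock rose from 112 to 1023 CPM in clone 7 and from 107 to 1058 CPM in clone 19 (3.25 ± 0.162, adjusted p = 4.53e-07), the only edgeR call among 24805 features (0.00403%), where 0 fell (0%) and 192 had an unadjusted p under 0.05 (0.774%). Arntl went from 41.8 to 888 CPM in clone 7 and from 66.0 to 153 CPM in clone 19, which is a smaller response in the latter (2.81 ± 0.525, adjusted p = 1). Dbp was at 2.76 and 1.82 CPM in clone 7 and at 4.21 and 3.61 CPM in clone 19 (-0.40 ± 0.211, against -2.45 ± 0.358 in ESC). Nr1d1 had a value of 0.09 ± 0.321 in iPSM and Hlf one of -0.42 ± 0.43.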

How the data were processed

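Per the labels, the libraries were made with a stranded total-RNA kit (TruSeq Gold) for paired-end sequencing. In the submitters' processing notes the tools are STAR 2.7.2a, HOMER and bcl2fastq, and the build is mm10. The authors' estimated counts were made over the gene body of each of 55421 transcripts, with no normalization factor per the file headers. They come in steps of 0.5, with 16.9% of values ending in 0.5, and were rounded to whole counts for the fits. The authors' RPKM columns were recomputed from the counts within 1% plus 0.001 for 100% of values and not used further. A gene body includes introns, and 113 symbols occur more than once.

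All 10 ESC libraries were fitted with edgeR 4.0.16 in R 4.3.3 (TMM, filterByExpr by group, glmQLFit and glmQLFTest), with clone as a block and 1 dox term for each kind of line, leaving 2 residual degrees of freedom. Tests were two-sided with Benjamini-Hochberg adjustment over all 22500 features tested and a threshold of 0.05. SE was taken as the fold change on the log2 scale over the root of F. CPM values are TMM-scaled, and within-clone log2 differences use a prior count of 2. Intervals for count ratios are exact at 95% and cover counting error only. The iPSM libraries were fitted in the same way. The control pair has 1 library per arm and no test. In ESC the p-values rest on the spread of the dox effect between the 2 clones of a construct, pooled over both constructs. This spread was moderated with 6.731 prior degrees of freedom taken over all features.

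Treated and untreated libraries of a number are the same clone per the labels, which is why they were paired. The correlation of their deviations from the group means over features was -0.10 for the dominant-negative and 0.66 for the Clock/Bmal1 clones. DESeq2 1.42.0 and limma 3.58.1 (voom), both with the block, were alternatives, as were other scalings, filters and left-out clones. The fit was tested on simulated data.

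The members and the 28 gene lists (458 genes) were chosen with earlier results of these data known. Named genes are 20 clock genes (1 further list member is not reported here), the 5 of smallest p in each direction where fewer than 5 passed (of one sign in clones 5 and 6, a group mean of 1 CPM or more, no provisional symbol), and from other lists up to 3 members that passed and the 2 most abundant, which are given here for some lists only. Promoter sequences are from RefSeq.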

Additional observations from a re-analysis of the deposited data

Results flagged for a closer look

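The dox effect differed between the 2 constructs, by the test of the difference itself in edgeR, for 25 genes, all lower in the dominant-negative clones. Among the clock genes the difference in log2 fold change was -2.78 for Per1, -2.54 for Per3, -6.35 for Bhlhe41, -3.86 for Ciart, -5.14 for Nr1d1, -6.21 for Dbp, -2.21 for Tef and -6.66 for Hlf. Of the genes looked at outside the clock it was -4.26 for Rasd2, -4.18 for Ndrg1, -2.48 for Lfng and -2.19 for Foxred2. Without the clone block the calls of Per1, Per3, Ndrg1 and Foxred2 were lost. Hlf was also lower with dox in the control line, with a log2 difference of -2.68.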

How the results depend on the processing

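With 2 clones per construct the calls depend on the fit. Against 1 rise and 0 falls with the clone block, 1 and 0 were called without the block, in the 4 dominant-negative libraries alone, with DESeq2 size factors and with library totals. No filter on low counts gave 35 and 377 of 36539 features, with 17 of the 24 fibroblast genes among the falls. In that fit the spread came from the trend over all features and not from each gene. Genes on which the clones disagree could therefore pass, such as Col5a2. A filter of at least 1 CPM in 2 libraries gave 0 and 0 (Arntl adjusted p = 0.0559, 547 features at an unadjusted p under 0.05). DESeq2 gave 3 and 3, and limma voom 2 and 0. The difference between constructs, 25 lower and 0 higher, became 13 lower without the block, and 437 lower and 33 higher without the filter, with the same limit.

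With 1 clone or library left out, rises ran from 0 to 1356 and falls from 0 to 1940, and the genes with a lower and a higher difference from 313 to 1392 and from 39 to 256. In the unpaired fits Arntl was not called without untreated clone 5 (adjusted p = 0.215) or untreated clone 6 (0.298). In iPSM rises ran from 1 to 2 and falls from 0 to 5, without clone 19 for the larger counts, and Nr1d1 from -0.40 to 0.52. Of the named genes in ESC, 21 had a log2 fold change of the other sign under at least 1 of these settings, and none of them had passed. In the paired fits without clone 5 or clone 6 the values were Bhlhe40 -0.64 to 0.27, Bhlhe41 -0.48 to 0.68, Nr1d2 -0.20 to 0.24, Mga -0.20 to 0.12, Npas2 -0.14 to 0.79, Arntl2 -0.032 to 0.29, Per2 -0.71 to 1.26, Cry1 -0.19 to 0.45, Cry2 -0.30 to 0.62, Dnmt3b -0.065 to 0.29, Tdgf1 -0.005 to 0.33, Col5a2 -3.26 to 0.17, Ccn1 -1.46 to 0.075, Pkm -0.63 to 0.074, Eno1 -0.13 to 0.007, Notch2 -0.26 to 0.47, Ccnb1 -0.22 to 0.17, Mycn -0.14 to 0.23 and Lfng -0.087 to 0.75. In the fits with no replicate block, where the lone library is assumed to vary like the other groups, the values without untreated clone 5 were Bhlhe41 -0.22, Nr1d2 -0.11, Rorb -0.008, Nfil3 -0.078, Ccnb1 0.045 and Mga 0.021. Without treated clone 5 they were Bhlhe40 0.24, Bhlhe41 -0.19, Nr1d2 -0.079 and Mga 0.05. Without untreated clone 6 they were Npas2 -0.013, Arntl2 -0.064, Cry1 -0.12, Cry2 -0.17 and Mycn -0.11. Without treated clone 6 they were Per2 -0.58, Cry2 -0.021, Rorb -0.25, Nfil3 -0.17, Pkm 0.022, Eno1 0.019, Notch2 -0.26, Ccnb1 0.22 and Mycn -0.001. The cause was not tested. Low counts limit Hlf, Nr1d1, Bhlhe41, Rorb, Gpx6 and Cxcl5. Clone 6 differs from clone 5 in fibroblast RNA as well as in response, and with 1 pair each these cannot be told apart.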

Other observations

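Gm10800, a provisional gene model chosen after its values were seen, was at 166 CPM untreated and 51.0 CPM with dox in clone 5 and at 705 and 190 CPM in clone 6. In Clock/Bmal1 clone 7 it was at 479 and 32.9 CPM, while clone 1 had 26.6 and 29.97 CPM and the control pair 14.4 and 10.5 CPM. Its level thus varied widely between untreated clones. Gm10718, Gm10801, Gm21738 and Gm33838, also at least 2-fold lower in both clones, moved much like Gm10800. Their log2 differences were -1.38 to -1.79 in clone 5, -1.89 to -2.04 in clone 6 and -3.34 to -4.02 in Clock/Bmal1 clone 7. Whether these are separate responses was not tested. How reads shared with similar gene models were counted is not given in the sources used here, so these values are uncertain.

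Mitochondrially encoded genes had a median log2 difference of -1.05 in the control pair, against -0.24 in clone 5 and 0.24 in clone 6, over 11 members tested. The control pair has no replicate.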
